A study of Homo sapiens with 3 samples.

Results

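In a pooled knockout screen of the gastric cancer line NUGC3, 63 of 62916 guides stood at least 4-fold over day 0 in 10 nM RTX while staying under 2-fold in DMSO. They had to start from at least 50 normalized reads at day 0, which 59570 guides did. The 63 fell on 56 genes and 3 non-targeting controls. SLC19A1, FPGS and AP2S1 were the 3 genes with 2 or more such guides, and the other 53 had 1 each. All members were chosen by their RTX over day 0 and DMSO over day 0 ratios, so these ratios are given as a description and carry no test.

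The groups were NUGC3 cells kept for 14 days in 10 nM RTX, cells kept for 14 days in DMSO, the solvent control, and cells at day 0, all carrying the same GeCKO knockout library. In such a library each cell carries 1 guide RNA that leads Cas9 to cut 1 gene, and the reads of the guide in genomic DNA count the cells that carry it. With 1 library per group, nothing here has a replicate check between cultures, and intervals cover counting error only, since PCR reads are not independent molecules. RTX is not spelled out by the labels. The title of the series is about antifolate drugs. The guides, by their names, all belong to the A part of the library. The libraries held 17344507 reads in RTX, 18805737 in DMSO and 16547572 at day 0, with medians of 232, 251 and 230 reads per guide. A treatment note in the labels speaks of the day 0 group as kept in DMSO for 14 days, and the sample titles were used in its place.

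Antifolates resemble folate vitamins and enter most cells through the reduced folate carrier. Inside the cell a synthetase adds a chain of glutamates, which traps the drug and strengthens its hold on the enzymes that make thymidylate and purines. Loss of uptake or of polyglutamation is a known way for cells to survive such drugs. In a screen, a guide against such a gene gains reads in the drug and not in the solvent. Single guides can also gain or lose reads without any effect of their target, which is why libraries hold several guides per gene and guides without a target.

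Guide sequences were not used here. For the 5 microRNA genes among the 56, the mature RNAs show what each targeted gene encodes. The sequences are from RefSeq (GRCh38.p14), 5′ to 3′, with the seed, bases 2 to 8, in capitals.
hsa-miR-4475: cAAGGGACcaagcauucauuau
hsa-miR-3121-3p: uAAAUAGAguaggcaaaggaca
hsa-miR-3121-5p: uCCUUUGCcuauucuauuuaag
hsa-miR-935: cCAGUUACcgcuuccgcuaccgc
hsa-miR-1228-3p: uCACACCUgccucgcccccc
hsa-miR-1228-5p: gUGGGCGGgggcaggugugug
hsa-miR-4654: uGUGGGAUcuggaggcaucugg
No 2 of these 7 mature RNAs share a seed, so the 5 genes are not members of 1 seed family.

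The 63 guides were 0.106% of the 59570 with enough reads at day 0. They took 0.724% of all reads in RTX, 0.0714% in DMSO and 0.0692% at day 0. SLC19A1 alone supplied 42.4% of their reads in RTX, and the 3 genes with several guides supplied 54.9% through 7 guides. The ratios were concentrated near the threshold. Of the 63, 33 lay under 5-fold over day 0, 21 from 5-fold to under 8-fold, 9 at 8-fold or more and 4 of those above 20-fold. In 33 the lower counting bound (95%, exact) was itself at or above 4-fold. All 3 non-targeting guides were among them. This bound comes from the same reads that chose the guides, so it describes counting error and is no support for a target. The median RTX over day 0 ratio of the 63 was 4.82, and their median DMSO over day 0 ratio was 1.04, against 0.998 and 0.999 over all 59570.

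SLC19A1, the reduced folate carrier, held the highest RTX over day 0 ratio of all guides with enough reads. Guide HGLibA_51787 had 43111 reads in RTX, 414 in DMSO and 357 at day 0. It stood 120-fold over day 0 in RTX (95% counting interval 108 to 134) and at 1.04 in DMSO. Guide HGLibA_51786 had 10090 reads in RTX, 284 in DMSO and 199 at day 0, a 50.4-fold gain over day 0 in RTX (43.8 to 58.3) beside 1.28 in DMSO. RTX was thus far above DMSO and day 0 for both, and DMSO stayed close to day 0. The third SLC19A1 guide, HGLibA_51785, stood as far above day 0 but is not among the 63. It had 2578 reads in RTX, 87 in DMSO and 35 at day 0, under the minimum, and its ratios over day 0 were 73.3 in RTX and 2.23 in DMSO.

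FPGS, the synthetase that adds glutamates to folates and antifolates, was the single gene with all 3 of its guides among the 63. The ratios of these 3 guides differed widely. Guide HGLibA_17960 had 8547 reads in RTX, 48 in DMSO and 139 at day 0, which is 61.2-fold over day 0 in RTX (51.7 to 72.9) and 0.309 in DMSO. Its ratio of RTX over DMSO, 196 (148 to 266), was the highest of the 63. Guide HGLibA_17959 had 1696 reads in RTX, 165 in DMSO and 216 at day 0, or 7.81-fold over day 0 in RTX (6.78 to 9.04). Guide HGLibA_17961 had 1491 reads in RTX, 306 in DMSO and 264 at day 0, or 5.62-fold in RTX (4.93 to 6.43). The interval of HGLibA_17960 lay far above those of the other 2, whose own intervals did not overlap either.

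AP2S1 encodes the small subunit of AP-2, the adaptor that gathers cargo into clathrin-coated pits at the cell surface. Guide HGLibA_02318 had 2527 reads in RTX, 157 in DMSO and 265 at day 0, and guide HGLibA_02317 had 1436, 63 and 170 in the same order. They stood 9.49-fold (8.36 to 10.8) and 8.40-fold (7.16 to 9.91) over day 0 in RTX, and at 0.531 and 0.332 in DMSO. Both guides were therefore lower in DMSO than at day 0 and higher in RTX than at day 0. The third guide, HGLibA_02316, had 452 reads in RTX, 458 in DMSO and 291 at day 0, with ratios over day 0 of 1.55 in RTX and 1.41 in DMSO. Of the other AP-2 subunits, AP2M1 came closest, with guides at 2.62, 2.98 and 1.06 over day 0 in RTX. In DMSO the same guides stood at 0.482, 1.87 and 0.780, so the one at 2.98 was raised in both. The guides of AP2A1, AP2A2 and AP2B1 lay between 0.674 and 1.53 in RTX.

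Non-targeting guides show how often the thresholds are met without a target. Of 944 with enough reads at day 0, 3 met the rule, a share of 0.318% (95% Clopper-Pearson interval 0.0656% to 0.926%). Of 58626 targeting guides 60 did, a share of 0.102% (0.0781% to 0.132%). The share of targeting guides lay inside the interval of the non-targeting guides, and it was the lower of the 2 values, so a higher share among targeting guides was not detectable. Without the 3 genes that had several guides, the targeting share was 0.0904% (0.0677% to 0.118%).

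The non-targeting guides among the 63 were not all marginal. NonTargetingControlGuideForHuman_236 had 1794 reads in RTX, 232 in DMSO and 182 at day 0, and its ratio of 9.81 over day 0 in RTX (8.41 to 11.5) exceeded that of both AP2S1 guides. NonTargetingControlGuideForHuman_135 had 1157 reads in RTX, 260 in DMSO and 178 at day 0, a ratio of 6.47 in RTX. NonTargetingControlGuideForHuman_219 had 485 reads in RTX, 123 in DMSO and 86 at day 0, a ratio of 5.61. Each non-targeting guide stands alone, so these controls give no rate for a second guide of the same gene. An RTX over day 0 ratio of 9.81 from 1 guide was thus seen without a target. Single guides up to that size are within what the controls showed for this ratio. Among the 63, above it lay guides of SLC19A1, FPGS, POU3F1 and hsa-mir-4475. On RTX over DMSO the highest of the 944 non-targeting guides was 9.64. The 63 had a median of 5.00 and an upper quartile of 9.86 on that ratio. AP2S1 guides HGLibA_02317 and HGLibA_02318 stood at 25.1 and 17.7.

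The same thresholds with the conditions exchanged gave fewer guides and no gene with several. Guides at least 4-fold over day 0 in DMSO and under 2-fold in RTX numbered 21, or 0.0353% of those with enough reads at day 0. They fell on 20 genes with 1 guide each and 1 non-targeting guide. Without the limit on RTX, 25 guides (0.042%) were at least 4-fold over day 0 in DMSO. The highest of the 21 was a guide of MMRN1, a protein of platelets and endothelium, with 227 reads in RTX, 4316 in DMSO and 198 at day 0. Large gains of 1 guide were thus seen in the solvent alone as well. Counted in pairs, a guide of the 63 shared its gene with another guide that had enough reads at day 0 in 115 cases, and in 10 of these (8.70%) the other guide was also among the 63. All 10 lay in SLC19A1, FPGS and AP2S1, with each pair counted from both of its guides, so they restate those genes and are no separate evidence. Under the exchanged thresholds the other guide also met them in 0 of 38. This allows up to roughly 7.89%, the share of 3 counts, if pairs are taken as independent. The limit is too rough to set the 2 rules apart.

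Of the 53 genes with 1 guide among the 63, most showed nothing like it in their other guides. They had 103 other guides with enough reads at day 0, whose median RTX over day 0 ratio was 1.05, against 0.998 over all such guides. In 41 of the 53 genes every other such guide was under 2-fold in RTX, and in 15 every one was below its day 0 level. A gain of at least 2-fold in RTX with under 2-fold in DMSO was met by 11 of the 103 (10.7%), against 2.57% of all guides with enough reads (2.84% without the limit on DMSO). Leaving out chromosome 21, it was 6 of 90 (6.67%). Among the other guides of the 20 genes of the exchanged thresholds, this same gain in RTX was met by 3 of 38 (7.89%). That count is of gains in RTX and is not the exchanged comparison. None of these 38 reached 2-fold in DMSO, the highest being a FAM46B guide at 1.83.

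The 10 single-guide genes of highest ratio were mostly of this kind. POU3F1, a POU-domain transcription factor of the nervous system, led them. Its guide HGLibA_45053 had 3196 reads in RTX, 132 in DMSO and 147 at day 0, or 21.6-fold over day 0 in RTX (18.3 to 25.7). Its other guides stood at 0.870 and 0.586. For hsa-mir-4475 the guide had 735 reads in RTX, 86 in DMSO and 57 at day 0, a ratio of 12.8 (9.79 to 17.1), and the other 3 guides lay between 0.889 and 1.13. POU1F1, the pituitary POU-domain factor, had 1 guide at 7.05 and others at 1.13 and 1.88. CTSH, a lysosomal cathepsin, had 6.69 beside 1.31 and 0.892, and INPP5D, a lipid phosphatase of blood cells, had 6.68 beside 0.888 and 1.00. RNF20, a ubiquitin ligase for histone H2B, had 6.64 beside 0.896 and 0.762. Its DMSO ratio of 1.96 was just under the limit. In these 6 genes no other guide reached 2-fold in RTX.

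The other 4 of the 10 had a second guide above 2-fold. NAA60, an N-terminal acetyltransferase of the Golgi, had 3803 reads in RTX, 429 in DMSO and 450 at day 0 for its leading guide, 8.41-fold over day 0. Its other guides stood at 3.12 and 1.45. ATXN2L, an RNA-binding relative of ataxin-2, had 2308 reads in RTX, 210 in DMSO and 318 at day 0 for its leading guide, 7.22-fold over day 0, with others at 3.76 and 1.69. LSM12, another RNA-binding protein with an Lsm domain, had guides at 6.91, 3.83 and 1.41. SLC4A7, a sodium bicarbonate cotransporter, had guides at 6.47, 2.20 and 0.824. All 3 guides of NAA60, ATXN2L and LSM12 were higher in RTX than at day 0.

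Besides these, CCDC114, a protein of ciliary dynein docking, had guides at 4.39, 3.89 and 1.07. MAX, the dimer partner of MYC, had 657 reads in RTX, 72 in DMSO and 161 at day 0 in its member guide, a ratio of 4.06 over day 0 in RTX and 0.400 in DMSO, with its other guides at 1.11 and 0.887 in RTX. MAX had the 1 guide of 38 in the MYC network. No guide of MYC itself reached 4-fold, its 3 standing at 2.33, 1.52 and 2.32.

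Of 17 gene lists for drug handling, nucleotide supply, transcription and growth, 4 held any of the 63, and 13 held none. Antifolate uptake and polyglutamation had 5 of 19 guides, all from SLC19A1 and FPGS, beside the 0.106% of all guides. SLC46A1, the proton-coupled folate transporter, FOLR1, a folate receptor, and GGH, which removes glutamates, had no guide that met the rule. AP-2 and clathrin had 2 of 39, both from AP2S1. No guide of 95 for Mediator or of 51 for cohesin, and none of 18 for antifolate efflux, 47 for thymidylate and deoxynucleotide supply or 81 for growth suppressors met it. The 13 lists without a member held 608 guides in all, and 0 of these allows a share of up to roughly 0.493%, above the 0.106% of all guides.

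Lists with moderate ratios also held none. Of the 16 Elongator guides, against a complex that modifies transfer RNA, 10 were at 2-fold or more over day 0 in RTX and under 2-fold in DMSO, and the median RTX over day 0 ratio was 2.34 beside 0.415 in DMSO. The ELP3 guides reached 2.39, 3.93 and 2.55 in RTX, so the highest fell just short of 4. JAK1, a cytokine receptor kinase, had 3 guides at 2.57, 2.57 and 2.58 in RTX, with 1.05, 1.27 and 1.20 in DMSO. MOCS3, which activates sulfur for transfer RNA thiolation, had 2.34, 2.49 and 2.96. The threshold of 4 therefore left out genes whose 3 guides were all higher in RTX by less.

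Chromosome 21 held 10 of the 60 targeting guides on 9 genes, 1.5% of its 665 guides (0.723% to 2.75%), where all other targeting guides gave 50 of 57961, or 0.0863% (0.0640% to 0.114%). The median RTX over day 0 ratio of all its guides was 1.59, beside 0.993 in DMSO. Guides there were thus higher in RTX as a block and not in DMSO. Besides SLC19A1 the genes were PDXK, which makes active vitamin B6, HLCS, which attaches biotin to carboxylases, SUMO3, a small protein modifier, GRIK1, a glutamate receptor, ICOSLG, a costimulatory ligand, RIPPLY3, and the hair keratin-associated KRTAP10-6 and KRTAP19-8, from a family of closely similar genes in which a guide may match more than 1 member. In the gene order of RefSeq all 8 lay before SLC19A1, from 8 to 178 genes away among the genes measured. On that side 625 guides gave 8 that met the rule, with a median ratio in RTX of 1.60. After SLC19A1, towards the end of the chromosome, 34 guides gave 0, with a median of 1.51. A count of 0 in 34 allows a share of up to roughly 8.82%. What this position has to do with the gain was not tested.

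The other guides of these 8 genes were above day 0 in RTX too, on a chromosome whose guides had a median of 1.59. All 13 with enough reads were above 1 in RTX, with a median of 1.96 and a range of 1.18 to 3.18. Of them 5 (38.5%) met the 2-fold gain in RTX without one in DMSO, against 2.57% of all guides with enough reads. The share over all guides of chromosome 21 is not given here, so no trait of these 8 genes can be read from it. PDXK had guides at 5.58 and 2.61, and another with 251 reads in RTX, 27 in DMSO and 22 at day 0, under the minimum, that stood at 11.3. HLCS had guides at 5.41 and 1.69 and another, under the minimum with 32 reads at day 0, at 5.13. With a minimum of 20 reads, PDXK and HLCS joined SLC19A1, FPGS and AP2S1 as genes with several guides. Chromosome 9 had the next highest share, 9 of 2318 guides (0.388%, 0.178% to 0.736%). Of these 3 were FPGS and 6 belonged to 6 genes with 1 guide each, namely ABO, ABCA2, SAPCD2, RNF20, ARHGEF39 and hsa-mir-4475. Its median ratio in RTX was 0.994, so no shift of the whole chromosome stood beside them.

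In DMSO the 63 guides were spread on both sides of day 0. There were 10 under 0.5, 17 from 0.5 to 1, 25 from 1 to 1.5 and 11 from 1.5 to the limit of 2. Those under 1 were 42.9% of the 63, against 50.1% of all guides with enough reads, which had no upper limit. The 10 lowest included 1 guide each of FPGS, AP2S1, SLC4A7, hsa-mir-3121, IGLON5, FIS1, THUMPD3, KRTAP10-6 and MAX. FIS1, a factor of mitochondrial fission, had 438 reads in RTX, 24 in DMSO and 78 at day 0 in its guide. Its other guides stood at 0.447 and 0.665 in RTX, so the gain rested on 1 guide. RTX over DMSO was at least 4 in 44 of the 63 and lower in 19, the lowest being 2.32 for hsa-mir-1228, beside 1.34% of all guides at 4 or more. The ratio of RTX over DMSO uses the same libraries and is no separate evidence.

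Low starting counts were common among the 63. Their median was 129 reads at day 0, with a range of 50 to 822, against 241 over all guides with enough reads. Of the 63, 25 (39.7%) had under 100 normalized reads at day 0, against 11.1% of all. The guides of the 3 genes with several all had 139 reads or more. At the other end KCNH8, a potassium channel, had 3451 reads in RTX, 959 in DMSO and 822 at day 0, a ratio of 4.18 (3.87 to 4.51) from the deepest starting point of the 63.

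The remaining genes with 1 guide lay between 4.06 and 6.27 over day 0 in RTX. Enzymes and metabolic genes among them were ABO, the blood group glycosyltransferase, at 6.27, DOHH, which completes hypusine on the translation factor eIF5A, at 4.19, and CCBL2 at 4.81. Of genes for RNA and translation, DDX10, a helicase of ribosome assembly, stood at 4.75, TACO1, an activator of mitochondrial COX1 translation, at 5.35, THUMPD3, a transfer RNA methyltransferase, at 4.49, and IMPACT at 4.12. Of chromatin genes, SRCAP, a remodeller that deposits the histone variant H2A.Z, stood at 4.22 and PHF8, a histone demethylase, at 4.15. None of the other guides of these 9 genes met the gain of 2-fold in RTX with under 2-fold in DMSO. ABO had a second guide at 2.67 in RTX, which missed it because it stood at 2.09 in DMSO.

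Some genes of this set are known from tissues other than the stomach, and their expression in NUGC3 was not measured here. OR5D13, an olfactory receptor, had a guide with 439 reads in RTX, 97 in DMSO and 77 at day 0, at 5.67, and its other guides stood at 0.995 and 0.852. MUC7, a salivary mucin, had one at 4.49 beside 1.11 and 1.19, and IGLON5, a neuronal adhesion protein, one at 5.92 beside 1.27 and 1.07. LGALS12, a galectin of fat cells, stood at 5.68 beside 1.20 and 1.08. A further 12 genes were NLRP11, CLECL1, SYT8, KCNIP4, NXPE2, TBC1D10B, SAPCD2, TMEM31, TRABD2B, ARHGEF39, ABCA2 and GIPC1, whose guides reached 4.06 to 4.72. In none of these 16 genes did a second guide reach 2-fold in RTX.

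MicroRNA genes, at 5 of 5910 guides (0.0846%, 0.0275% to 0.197%), and protein-coding genes, at 55 of 52716 (0.104%, 0.0786% to 0.136%), gave overlapping shares. After hsa-mir-4475 came hsa-mir-3121 at 6.04, hsa-mir-935 at 4.96, hsa-mir-1228 at 4.22 and hsa-mir-4654 at 4.09. Each rested on 1 of 4 guides. Of the other 3 guides of hsa-mir-3121, all were below day 0 in RTX, at 0.639, 0.527 and 0.320.

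The rule left out a few guides with large gains. Of the 75 at least 4-fold over day 0 in RTX (0.126%), 12 were left out because they also reached 2-fold in DMSO. The highest was a guide of FUT5, a fucosyltransferase, with 2067 reads in RTX, 338 in DMSO and 59 at day 0, which is 34.9-fold over day 0 in RTX and 5.13-fold in DMSO. The 3 members just inside the threshold were guides of KRTAP19-8 at 4.03, MAX at 4.06 and GIPC1 at 4.06. Just outside it were guides of hsa-mir-4632 at 3.998, BRSK1 at 3.99 and C7orf49 at 3.96. A further 66 guides met both ratios but had under 50 normalized reads at day 0, and 2 of them were non-targeting.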

How the data were processed

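Guide abundance was read by PCR and Illumina sequencing of genomic DNA from 3 NUGC3 cultures, per the labels' protocols. The authors deposited a guide table for each of the 3 pairs of libraries. The submitters' processing notes name MAGeCK 0.5.7 and hg19, and the matching of reads was not given in the sources used here. The deposited signal of a guide is its read count scaled by a size factor of the library, set anew in each table. Ratios are those of the deposited values, with no pseudocount. Printed reads were recovered by dividing by the value of 1 read. At least 99.9968% of values came out whole within 0.1, and each library's total was equal in the 2 tables that hold it. No count test was run on them, because each condition is 1 library and the rule used these contrasts.

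Guides with enough reads had 50 or more normalized reads at day 0 in the table that pairs RTX with day 0. Intervals of a ratio are exact conditional intervals (95%) from the reads of both libraries, and those of shares are Clopper-Pearson (scipy 1.17.1). The limit given for a count of 0 is the share that 3 counts would give. It is a rough limit and not a Clopper-Pearson bound. The rule and intervals were tested on simulated data. The planted gains there were well above the threshold, in guides with starting counts well above the day 0 minimum. Recovery of gains near the threshold or from low counts was not tested. Chromosomes and gene order came from RefSeq (GRCh38.p14), which placed 20205 of 20472 symbols, 1338 by a synonym. No coordinates are given, since its build is not the authors'. The guides, lists and rules were chosen with earlier results of these data known. Named were all genes with several guides, the 10 single-guide genes of highest ratio, the non-targeting guides, list genes with a guide, and the guides nearest the threshold. Other genes were named after their values were seen. The values of some member genes are not reported here.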

Additional observations from a re-analysis of the deposited data

How the results depend on the processing

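SLC19A1, FPGS and AP2S1 remained the genes with several guides under 6 of 11 alternative settings, namely a day 0 minimum of 100, no limit on DMSO, both other scalings, a pseudocount of 5 and an added ratio of 4 for RTX over DMSO. The count fell to 2 genes with a day 0 minimum of 200 (without AP2S1), at 8-fold (without FPGS), with DMSO under 1 (without SLC19A1) and without chromosome 21 (without SLC19A1). The counts of guides, of genes with 1 guide and of non-targeting guides, 63, 53 and 3 as reported, moved with the thresholds. They were 38, 29 and 2 with a minimum of 100 reads at day 0, and 21, 17 and 0 with 200. At 3-fold there were 229 guides, 10 genes with several, 202 with 1 and 6 non-targeting guides. The 10 added ADARB1, ATXN2L, CCDC114, CDK2, LSM12, NAA60 and PFKL, and 3 of the 10 were on chromosome 21. At 8-fold there were 9 guides, 4 genes with 1 and 1 non-targeting guide. With DMSO under 1 there were 27, 23 and 0. Scaling to the non-targeting guides gave 42 guides, of which 39 were among the 63, and 32 genes with 1, and the added RTX over DMSO ratio gave 34 genes with 1. After the data were seen, a minimum of 20 reads gave 5 genes with several and 5 non-targeting guides, and a 2-fold threshold gave 1533 guides, 101 genes with several (46 on chromosome 21), 1293 with 1 and 23 non-targeting guides. No paired analysis was possible because each condition is 1 library. Depth limits low starting counts most, and no interval here covers variation between cultures.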
